A study of Mus musculus with 24 samples.

Results

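The mouse mitochondrial genome carries 37 annotated genes, and all of them are described here as they appeared in RNA sequencing of the gastrocnemius, a large calf muscle. The members were all genes of the deposited tables whose symbol starts with mt-, which gave 13 protein-coding genes, 2 ribosomal RNA (rRNA) genes and 22 transfer RNA (tRNA) genes among 55385 genes in all. The rule uses no measured value. The samples were 24 libraries from C57BL/6J females in 6 groups of 4. Young mice were 3–6 months old, old mice 21–24 months and oldest-old mice 27–29 months. In the groups called young GFP, old GFP and oldest-old GFP, mice had received AAV-GFP, an adeno-associated virus for green fluorescent protein. Mice of the groups named old AAV-Kl and, at the highest age, oldest-old AAV-Kl had received AAV-Kl, the same kind of virus for murine Klotho, a circulating protein tied to aging. Per the study's methods both vectors were AAV8 with the LP-1 promoter, which is active in liver rather than in muscle, given by tail vein at 3e8 vector genomes per mouse, and muscles were taken after 14 days. The remaining group, young sham, was labelled Sham, and what those mice received is not given in the sources used here. The comparison of ages asks how the muscle transcriptome changes to old and oldest-old age, and the comparison of AAV-Kl with GFP asks the same of raised Klotho.

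Mitochondrial DNA is a small circle that encodes core subunits of the respiratory chain and of the ATP synthase, together with the rRNAs and tRNAs that translate them. Both strands are transcribed by the polymerase Polrmt as long precursors, and the tRNAs that punctuate them are cut out to free the mRNAs and rRNAs between. Skeletal muscle fibers are rich in mitochondria, and all other mitochondrial proteins, including every factor that copies, transcribes and processes this genome, come from nuclear genes.

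On the genome build GRCm38, the genes lie end to end along chromosome M, and 9 neighbouring pairs share bases. That layout bears on the values, because a read that touches more than 1 gene was not counted for either in the tables used first. The longest overlap, 43 bases, joins mt-Atp8 (M, 7766 to 7969) and mt-Atp6 (M, 7927 to 8607), both on the plus strand and both for subunits of the ATP synthase. The end of mt-Atp8 and the start of mt-Atp6 are printed to show it, with the shared bases in capitals, at chrM:7912-7969 and chrM:7927-7984.
mt-Atp8, last bases: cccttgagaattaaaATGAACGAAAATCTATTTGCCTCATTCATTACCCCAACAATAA
mt-Atp6, first bases: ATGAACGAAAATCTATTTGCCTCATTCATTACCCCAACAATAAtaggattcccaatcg

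A second overlap joins genes on opposite strands. mt-Nd5 (M, 11742 to 13565, plus strand) and mt-Nd6 (M, 13552 to 14070, minus strand), both for subunits of complex I, share 14 bases at their ends. mt-Nd6 was the 1 protein-coding member on the minus strand. Each end is printed 5′ to 3′ on its own strand, at chrM:13532-13565 (plus) and chrM:13552-13585 (minus), with the bases that face each other in capitals.
mt-Nd5, last bases: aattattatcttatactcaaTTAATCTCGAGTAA
mt-Nd6, last bases: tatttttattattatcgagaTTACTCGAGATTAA

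Directly upstream of mt-Nd6 on the minus strand lies mt-Te, the tRNA for glutamic acid (chrM:14071-14139, minus strand). It is printed whole because it drew the most reads of all tRNA genes once strand was taken into account.
mt-Te: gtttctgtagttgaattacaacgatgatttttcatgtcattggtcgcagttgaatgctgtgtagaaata

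A further feature of sequence is that parts of mitochondrial DNA have copies in the nuclear chromosomes. A run of such copies is annotated on chromosome 1, minus strand, between 24611535 and 24616197. It holds Gm28661, identical to mt-Co2 over 681 of 681 aligned bases, Gm10925, identical to mt-Atp6 over 678 of 678, and Gm28437, identical to mt-Co3 over 783 of 783. Gm10222 matched mt-Nd4l over 294 of 294 bases and Gm28439 matched the first 876 bases of mt-Nd4 without a difference. Gm28438 differed from mt-Nd3 at 1 of 345 bases, T3C, counted from 1 at the first base of mt-Nd3. The first bases of that pair, at chrM:9459-9488 (plus) and chr1:24613090-24613119 (minus), are printed to show how alike gene and copy are, with the base that differs as the capital.
mt-Nd3, first bases: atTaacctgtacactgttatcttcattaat
Gm28438, first bases: atCaacctgtacactgttatcttcattaat

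Reads that map to more than 1 place were not counted on any gene. The share of a member's 50-base windows found also in another annotated transcript was 100% for mt-Co2, 99.9% for mt-Co3, 99.5% for mt-Atp6, 98.8% for mt-Nd4l and 98.0% for mt-Nd3. It was 62.2% for mt-Nd4, 51.1% for mt-Co1, 8.19% for mt-Nd2, 7.61% for mt-Nd5 and 1.04% for mt-Rnr2, and 0 for mt-Nd1, mt-Nd6, mt-Cytb, mt-Rnr1 and mt-Atp8. Levels of the genes with a high share are therefore lower limits, and levels of different members cannot all be set against each other. A gene can still be compared with itself between groups, for the reads that map once. For mt-Co2, mt-Co3, mt-Atp6, mt-Nd4l and mt-Nd3, only 0 to 6 bases lie outside shared windows. Whether the few reads counted on them follow the mRNA was not tested.

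In each library 36415886 to 59733985 reads were counted on genes, which was 74.7% to 77.0% of its reads, while 9.78% to 12.2% mapped to several places. Markers of skeletal muscle fibers were high in every group, with a summed level of 134007 to 193712 normalised CPM in the GFP groups of young and oldest-old mice. Normalised CPM are reads per 1000000 reads on genes, after scaling by the TMM method of edgeR. In bulk tissue, fewer cells of a type and less RNA per cell cannot be told apart. The study's methods describe 4 animals in each of the 5 groups given a vector, and the labels name no mouse behind a library, young sham included, so p-values measure the spread between these libraries.

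The mt- genes took between 13.2% and 17.6% of all reads on genes in the 24 libraries, with a mean of 15.7% ± 1.08 (SD, n = 24). Nearly all of these reads lay on mRNAs. Reads that map to several places, such as those shared with nuclear copies, are in neither count. The share is thus one of counted reads and not of the muscle's RNA. The rRNAs took 0.675% ± 0.072 of gene reads in young sham, 0.790% ± 0.042 in young GFP, 0.641% ± 0.087 in old GFP, 0.586% ± 0.064 in old AAV-Kl, 0.524% ± 0.080 in oldest-old GFP and 0.583% ± 0.055 in oldest-old AAV-Kl (SD, n = 4 each).

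The total share did not separate any of the groups compared. In young sham the libraries stood at 14.03%, 15.5%, 15.3% and 15.9%, and in young GFP at 17.2%, 16.1%, 14.8% and 15.9%. Old GFP libraries held 15.2%, 16.8%, 16.1% and 17.4%, and oldest-old GFP libraries 15.5%, 16.2%, 15.9% and 13.2%. With AAV-Kl the values were 17.6%, 13.8%, 14.9% and 16.4% in old mice and 16.2%, 16.1%, 16.5% and 15.1% in oldest-old mice. The ranges of the groups overlapped in all 6 comparisons. From young GFP to old GFP the mean moved by 0.38 percentage points, from young GFP to oldest-old GFP by -0.80, and from old GFP to oldest-old GFP by -1.18. AAV-Kl against GFP gave -0.70 points in old and 0.80 in oldest-old mice, and young GFP stood 0.81 above young sham. The pooled SD within a pair of groups ran from 0.90 to 1.34 points, and only the difference between old GFP and oldest-old GFP exceeded its own, which was 1.15. The lowest shares were those of the fourth oldest-old GFP, the second old AAV-Kl and the first young sham library, which also had the 3 lowest percentages of reads that map to several places (9.78%, 10.3% and 10.4%). The part of that in their share was not tested.

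**Figure D1:**
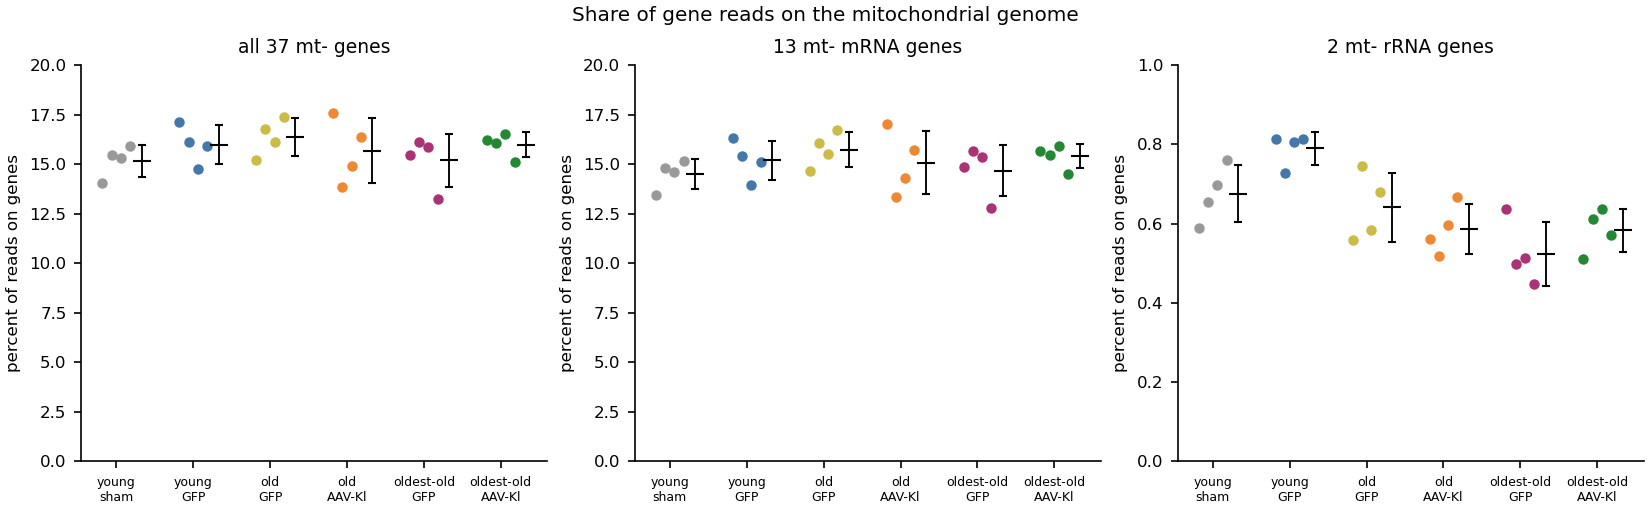
Share of gene reads on the 37 mt- genes, in percent, for each of the 24 libraries (points) by group, with the group mean and SD. All 6 groups overlap, between 13.2% and 17.6%.

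Among the mRNAs, levels per length fell into a high and a low block. Levels are given here as RPKM, reads per kilobase of gene and per 1000000 gene reads, as mean ± SD over the 24 libraries. mt-Co1, a catalytic subunit of complex IV, had the highest level at 27952 ± 1981, although 51.1% of its windows are shared with other transcripts. mt-Nd1 of complex I followed at 24796 ± 2064 and mt-Cytb, the cytochrome b of complex III, at 24303 ± 1729. The level of mt-Co1 was above that of mt-Nd1 in 24 of 24 libraries, whereas mt-Nd1 was above mt-Cytb in only 18 of 24, so this pair was within its spread. Next came the complex I genes mt-Nd2 at 18840 ± 1496, mt-Nd5 at 10273 ± 884, mt-Nd6 at 9348 ± 1066 and mt-Nd4 at 9162 ± 697. The order mt-Nd5 over mt-Nd6 held in 22 of 24 libraries and mt-Nd6 over mt-Nd4 in 15 of 24. It turned with the strand columns summed, where mt-Nd6 was above mt-Nd5 and above mt-Nd4 per length in 24 of 24 libraries each, at 1.19 ± 0.059 and 1.502 ± 0.11 times their level (SD over libraries). Summing raised mt-Nd5 from 22097959 to 24778042 reads and mt-Nd6 from 5718609 to 8419482 over all libraries, and the same reads can enter both. They weigh more per length on mt-Nd6, with 519 bases against 1824 for mt-Nd5, so the order of these genes is not settled.

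Of all mRNA reads in the set, mt-Co1 took a mean of 28.6%, mt-Cytb 18.4%, mt-Nd1 15.7%, mt-Nd2 12.95%, mt-Nd5 12.4%, mt-Nd4 8.36% and mt-Nd6 3.21%. The other 6 mRNAs together made up only 0.268% to 0.400% of them. Per length, mt-Co2 stood at 227 ± 28.7, mt-Atp6 at 192 ± 22.4, mt-Co3 at 154 ± 20.1, mt-Atp8 at 150 ± 26.9, mt-Nd4l at 69.7 ± 8.07 and mt-Nd3 at 55.2 ± 8.70 RPKM. In this low block 5 of 6 are the genes whose windows are shared with the nuclear copies at 98.0% or more. mt-Atp8 is the exception, since none of its windows lay in another annotated transcript, and the nuclear genome outside annotated transcripts was not searched.

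The rRNAs lay between the blocks. mt-Rnr1 (ENSMUSG00000064337.1, M, 70 to 1024), the RNA of the small mitochondrial ribosomal subunit, stood at 1915 ± 385, and mt-Rnr2 (ENSMUSG00000064339.1, M, 1094 to 2675), that of the large subunit, at 2847 ± 477 RPKM. mt-Rnr2 was above mt-Rnr1, and mt-Nd4 above mt-Rnr2, in 24 of 24 libraries each. How RNA was selected before the libraries were made is not given in the sources used here, and rRNA levels depend on it. Of the tRNAs, mt-Tp (proline) stood at 300.0 ± 37.5, and no other tRNA gene had more than 8 reads in a library.

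**Figure D2:**
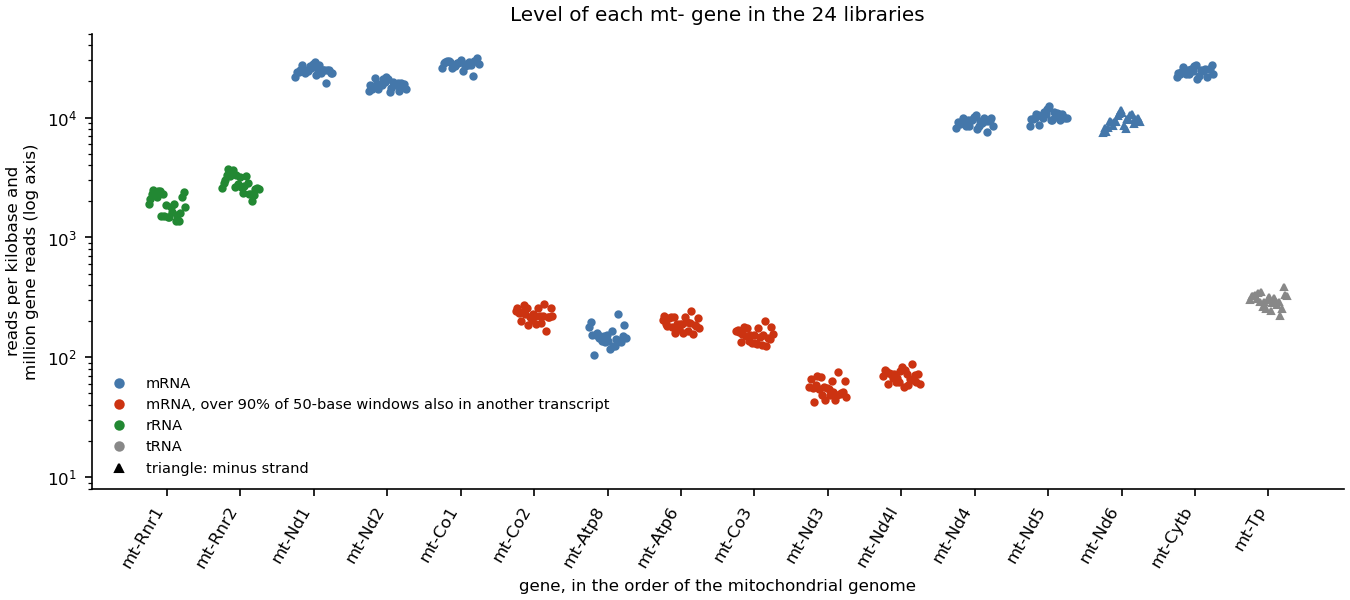
Level of each mRNA, rRNA and of mt-Tp in RPKM (log axis), with the 24 libraries as points. 7 mRNAs lie at 9162 or more on average and 6 at 227 or less, with the rRNAs between.

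In the counts without strand, the rRNAs were the members called between ages. Oldest-old GFP mice had less of both than young GFP mice, by 0.71 (mt-Rnr1) and 0.69 (mt-Rnr2) on the log2 scale, while the 13 mRNAs had a median log2 fold change of -0.15. Of the 16 members that passed the filter on low counts (13 mRNAs, both rRNAs and mt-Tp), these 2 were called, at an adjusted p under 0.05, where 14.9% of the 17803 genes tested were called. DESeq2 called 3, adding mt-Tp, and so did edgeR with DESeq2's size factors or with scaling by genes outside the set. All genes called lower made up 6.08% of those tested. At an unadjusted p under 0.05 there were 5 members, all lower, against 29.8% of all genes. The log2 fold change was negative for 15 of the 16 members, with a median of -0.20 against 0.03 over all genes tested.

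For mt-Rnr1 the young GFP libraries held 2424, 2114, 2336 and 2521 normalised CPM, and the oldest-old GFP libraries 1752, 1318, 1468 and 1223. All oldest-old GFP libraries were below all young GFP libraries. The log2 fold change was -0.71 (SE 0.13, edgeR's quasi-likelihood test with Benjamini-Hochberg adjustment, adjusted p = 0.0018), or 0.613 of the young level. For mt-Rnr2 the young GFP libraries held 6219, 5288, 5661 and 6352 normalised CPM and the oldest-old GFP libraries 4350, 3686, 3650 and 2936, again without overlap. Its log2 fold change was -0.69 (SE 0.12, edgeR's quasi-likelihood test, adjusted p = 0.00077), or 0.622 of the young level. With any 1 of the 8 libraries of these groups left out, the log2 fold change stayed between -0.83 and -0.65 for mt-Rnr1 and between -0.80 and -0.61 for mt-Rnr2, with adjusted p of at most 0.0072 and 0.0039 (edgeR). Without the third oldest-old GFP library the number of members called rose from 2 to 6, through mt-Co2, mt-Co3, mt-Nd3 and mt-Tp. In the full data mt-Tp, lying at M, 15356 to 15422, had a log2 fold change of -0.35 (SE 0.12, edgeR, adjusted p = 0.058).

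The young group chosen mattered for mt-Rnr2. Against young sham in place of young GFP, a comparison chosen after the young groups were seen to differ, mt-Rnr1 was lower in oldest-old GFP by 0.51 on the log2 scale (edgeR, adjusted p = 0.018) and mt-Rnr2 had a log2 fold change of -0.32 (adjusted p = 0.078). There, 1 member was called, where 11.6% of all genes were.

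Other transcripts moved between these groups too. The summed level of 10 skeletal muscle fiber markers ran from 169847 to 193712 normalised CPM in young GFP and from 134007 to 168886 in oldest-old GFP, with 1 marker called higher and 2 lower. For 10 slow and oxidative fiber markers the ranges were 4044 to 5155 and 5395 to 9310, with 6 higher. For 8 endothelial markers they were 255 to 291 and 329 to 375, with 4 higher, and for 6 erythroid markers 63.1 to 101 and 90.2 to 665, with 6 higher. The 10 keratinocyte markers summed to 137, 2.36, 421 and 1.96 in the young GFP libraries and to 2.05 to 8.002 in oldest-old GFP, with 5 lower. For 10 fibroblast and tendon markers the ranges were 909 to 1426 and 551 to 959, with 2 lower. None of these lists had a marker at 0 in either group. The part of these differences in the rRNA levels was not tested.

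Old GFP mice lay between young and oldest-old GFP mice in mean rRNA level. mt-Rnr1 stood at 1435, 2210, 1487 and 1884 normalised CPM in their libraries and mt-Rnr2 at 4123, 5279, 4495 and 5320, so that both overlapped with young GFP. Against young GFP, 0 of 16 members were called by edgeR's quasi-likelihood test, where 4.7% of all genes were, and DESeq2 called 1, mt-Rnr1. At an unadjusted p under 0.05 there were 2, both lower, against 19.1% of all genes. They were mt-Rnr1, with a log2 fold change of -0.42 (SE 0.13, edgeR, adjusted p = 0.077), and mt-Rnr2, with -0.29 (SE 0.12, adjusted p = 0.17), and next came mt-Tp with -0.25 (SE 0.12, adjusted p = 0.28). Without the second old GFP library, mt-Rnr1 was called. Of 20 liver markers 15 were called higher in old GFP, and their sum was 1127, 17.7, 10.96 and 162 normalised CPM in its libraries against 14.1 to 65.5 in young GFP, where Cps1, Fgg, Serpina1c and Plg were at 0. Without the first old GFP library, which held the highest sum, mt-Rnr1 had -0.33 (edgeR, adjusted p = 0.23) and mt-Rnr2 -0.22 (adjusted p = 0.40), and the part of these markers in the rRNA levels was otherwise not tested. The 13 mRNAs had a median log2 fold change of -0.01 (-0.32 to 0.18), and the 16 members one of -0.11 against 0.00 for all genes. Against young sham, mt-Rnr1 gave -0.22 (edgeR, adjusted p = 0.35) and mt-Rnr2 0.08 (adjusted p = 0.76). The only member called there was mt-Nd6, which was higher in old GFP, at a mean of 5556 against 4015 normalised CPM, where 3.67% of all genes were called.

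Between old GFP and oldest-old GFP, 0 members were called by edgeR and 0 by DESeq2, where edgeR called 0.00562% of all genes. At an unadjusted p under 0.05 there were 3, all lower, against 12% of all genes. These were mt-Rnr2 at -0.39 on the log2 scale (SE 0.12, edgeR, adjusted p = 0.23), mt-Nd1 at -0.25 (SE 0.10, adjusted p = 0.36) and mt-Rnr1 at -0.28 (SE 0.13, adjusted p = 0.41). mt-Nd1 ranged from 23475 to 28410 normalised CPM in old GFP and from 17152 to 24133 in oldest-old GFP. The 16 members had a median of -0.13 against 0.02 for all genes, and the mRNAs ran from -0.25 to 0.08.

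In the counts without strand, no member passed the test between the young groups. Young GFP libraries stood above the young sham libraries in mt-Rnr2, whose sham libraries held 4237, 4416, 4662 and 4917 normalised CPM, without overlap. The log2 fold change was 0.37 (SE 0.12, edgeR, adjusted p = 0.18), so it was not called. mt-Nd6 held 4034, 4145, 3854 and 4027 normalised CPM in young sham and 5208, 4810, 4421 and 5195 in young GFP, which also did not overlap, with a log2 fold change of 0.29 (SE 0.11, edgeR, adjusted p = 0.27). The next by p was mt-Cytb at 0.19 (SE 0.099, adjusted p = 0.41). In all, 0 of 16 members were called by edgeR, where 0.472% of genes were, and 0 by DESeq2. These 2, mt-Rnr2 and mt-Nd6, passed an unadjusted p under 0.05, against 13.4% of all genes. All 16 log2 fold changes were positive, with a median of 0.18 against -0.03 over all genes. The young GFP libraries enter both this comparison and those with age.

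AAV-Kl changed no member at an adjusted p under 0.05 in either age. In old mice 0 of 16 members were called by edgeR, where 0.0% of all genes were, and 0 by DESeq2, and 0 passed an unadjusted p under 0.05, against 2.15% of all genes. The lowest p were those of mt-Nd6 at -0.18 on the log2 scale (SE 0.11, edgeR, adjusted p = 0.99985), mt-Rnr1 at -0.18 (SE 0.13, adjusted p = 0.99985) and mt-Nd2 at -0.12 (SE 0.10, adjusted p = 0.99985). The 13 mRNAs ran from -0.18 to 0.10.

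In oldest-old mice 0 of 16 members were called by edgeR, where 0.0112% of all genes were, and 0 by DESeq2. The 1 member with an unadjusted p under 0.05, against 8.07% of all genes, was mt-Rnr1. It stood at 1470, 1889, 2229 and 1772 normalised CPM with AAV-Kl and overlapped with the oldest-old GFP libraries given above. Its log2 fold change was 0.35 (SE 0.13, edgeR, adjusted p = 0.55). mt-Tp had 0.26 (SE 0.12, adjusted p = 0.62) and mt-Co1 0.15 (SE 0.098, adjusted p = 0.71), and the mRNAs ran from -0.07 to 0.15. For mt-Rnr2 the AAV-Kl libraries held 3478, 3703, 4010 and 4114, inside the range of the GFP libraries.

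The difference between the effect of AAV-Kl in oldest-old and in old mice was tested as an interaction. It called 0 of 16 members by edgeR, where 0.00562% of genes were called, and 0 by DESeq2, and mt-Rnr1 alone passed an unadjusted p under 0.05, against 5.76% of all genes. The interaction was 0.53 on the log2 scale for mt-Rnr1 (SE 0.19, edgeR, adjusted p = 0.83), 0.22 for mt-Co1 (SE 0.14, adjusted p = 0.88) and 0.19 for mt-Rnr2 (SE 0.17, adjusted p = 0.92).

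**Figure D3:**
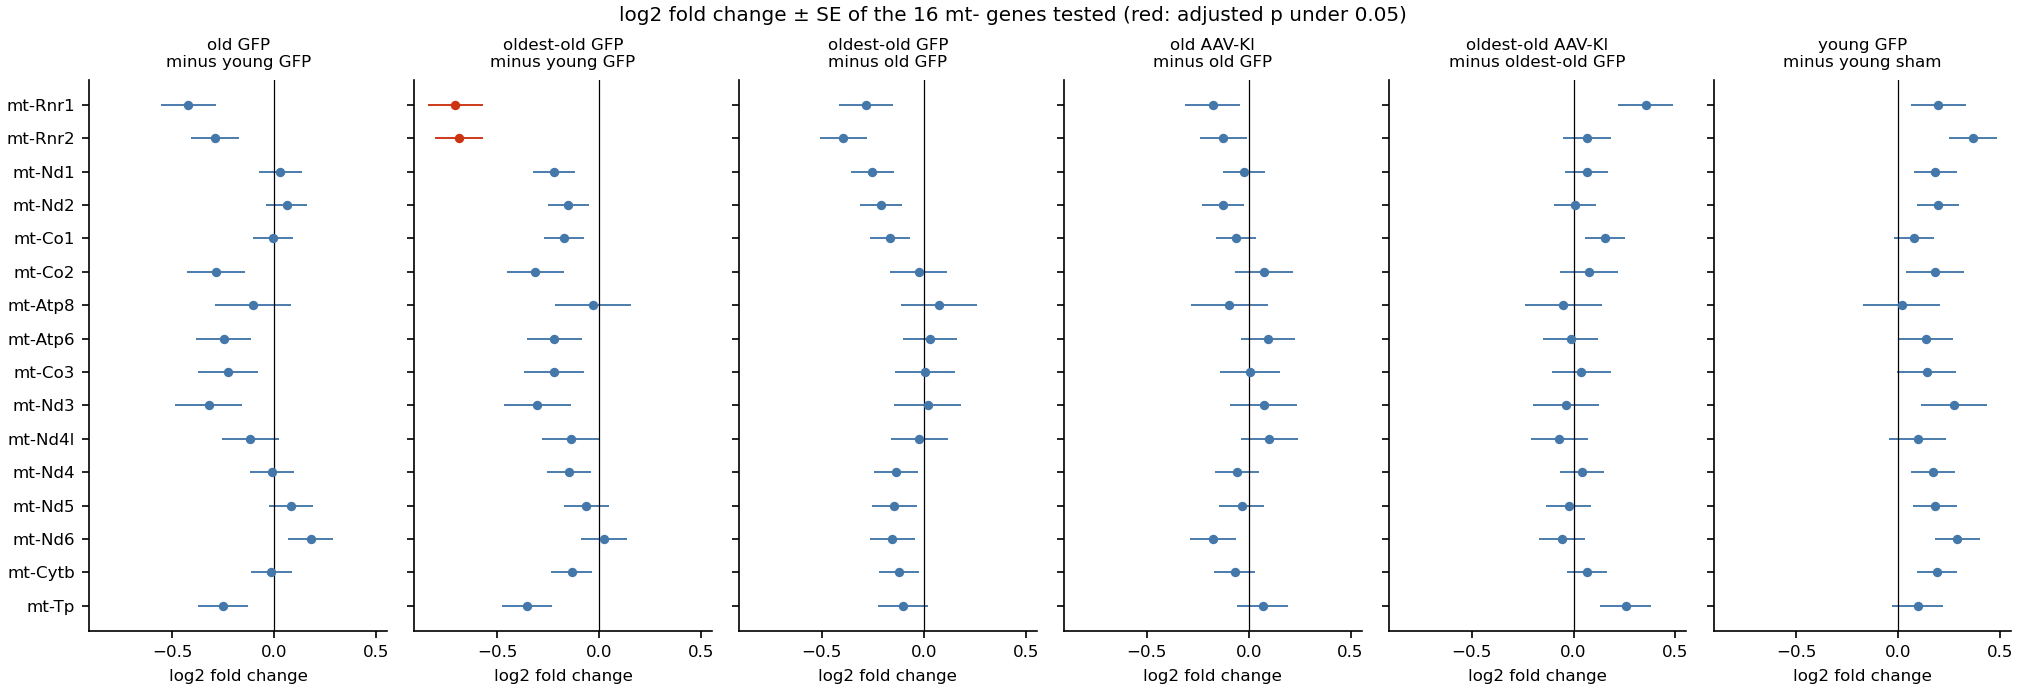
Log2 fold change with its standard error for the 16 members tested in each comparison, with members at an adjusted p under 0.05 in red. Both rRNAs in oldest-old against young GFP are the calls, at -0.71 and -0.69.

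The balance within the set is free of library scaling, since each value is a ratio of counts from 1 library. In young GFP there were 5.22 ± 0.46 rRNA reads per 100 mRNA reads (SD, n = 4, range 4.72 to 5.77). Old GFP had 4.07 ± 0.41 (3.75 to 4.64) and oldest-old GFP 3.58 ± 0.49 (3.18 to 4.28), both below young GFP without overlap. Young sham had 4.65 ± 0.30 (4.38 to 5.01), which overlapped with both young GFP and old GFP. With AAV-Kl the ratio was 3.90 ± 0.44 (3.30 to 4.26) in old and 3.79 ± 0.35 (3.26 to 4.01) in oldest-old mice, overlapping with GFP at the same age.

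The 2 rRNAs come from the same precursor, and their ratio varied as well. There were 2.23 ± 0.029 mt-Rnr2 reads per mt-Rnr1 read in young sham (2.20 to 2.25) and 2.50 ± 0.059 in young GFP (2.42 to 2.57), without overlap. Old GFP had 2.78 ± 0.27, old AAV-Kl 2.84 ± 0.35 and oldest-old GFP 2.54 ± 0.17. In oldest-old AAV-Kl the ratio was 2.11 ± 0.28 (1.80 to 2.37), below the range of oldest-old GFP (2.40 to 2.80).

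mt-Nd6, whose gene is on the minus strand, took a larger part of mRNA reads at both higher ages than in young GFP. Since the libraries do not mark strand, its count can also hold reads from RNA of the plus strand. The part of mt-Nd6 was 3.10% ± 0.09 in young GFP (3.00 to 3.19), 3.44% ± 0.16 in old GFP (3.26 to 3.60) and 3.49% ± 0.13 in oldest-old GFP (3.32 to 3.59). In young sham it was 2.83% ± 0.08 (2.72 to 2.89), below young GFP without overlap. Oldest-old AAV-Kl, at 3.21% ± 0.08 (3.09 to 3.27), lay below oldest-old GFP, and old AAV-Kl, at 3.19% ± 0.20 (2.91 to 3.33), overlapped with old GFP.

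Among the plus-strand mRNAs, mt-Co1 took 28.4% ± 0.69 in young GFP, 27.9% ± 0.68 in old GFP and 27.9% ± 0.95 in oldest-old GFP. It took 29.99% ± 0.37 in young sham, above young GFP without overlap, and 29.7% ± 0.47 (29.2 to 30.2) in oldest-old AAV-Kl, above oldest-old GFP (26.7 to 28.6). mt-Nd1 took 15.9% ± 0.25 in young GFP, 16.01% ± 0.12 (15.8 to 16.1) in old GFP and 15.1% ± 0.47 (14.4 to 15.5) in oldest-old GFP, the last below both others. In old AAV-Kl it took 16.5% ± 0.26 (16.2 to 16.8), above old GFP, while mt-Nd2 took 12.9% ± 0.19 there against 13.4% ± 0.18 in old GFP. mt-Nd5 took 12.1% ± 0.54 (11.4 to 12.5) in oldest-old AAV-Kl against 12.9% ± 0.52 (12.5 to 13.6) in oldest-old GFP. Neither of these pairs overlapped. These parts sum to a whole, so a rise in 1 mRNA lowers the others, and no test was run on them.

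**Figure D4:**
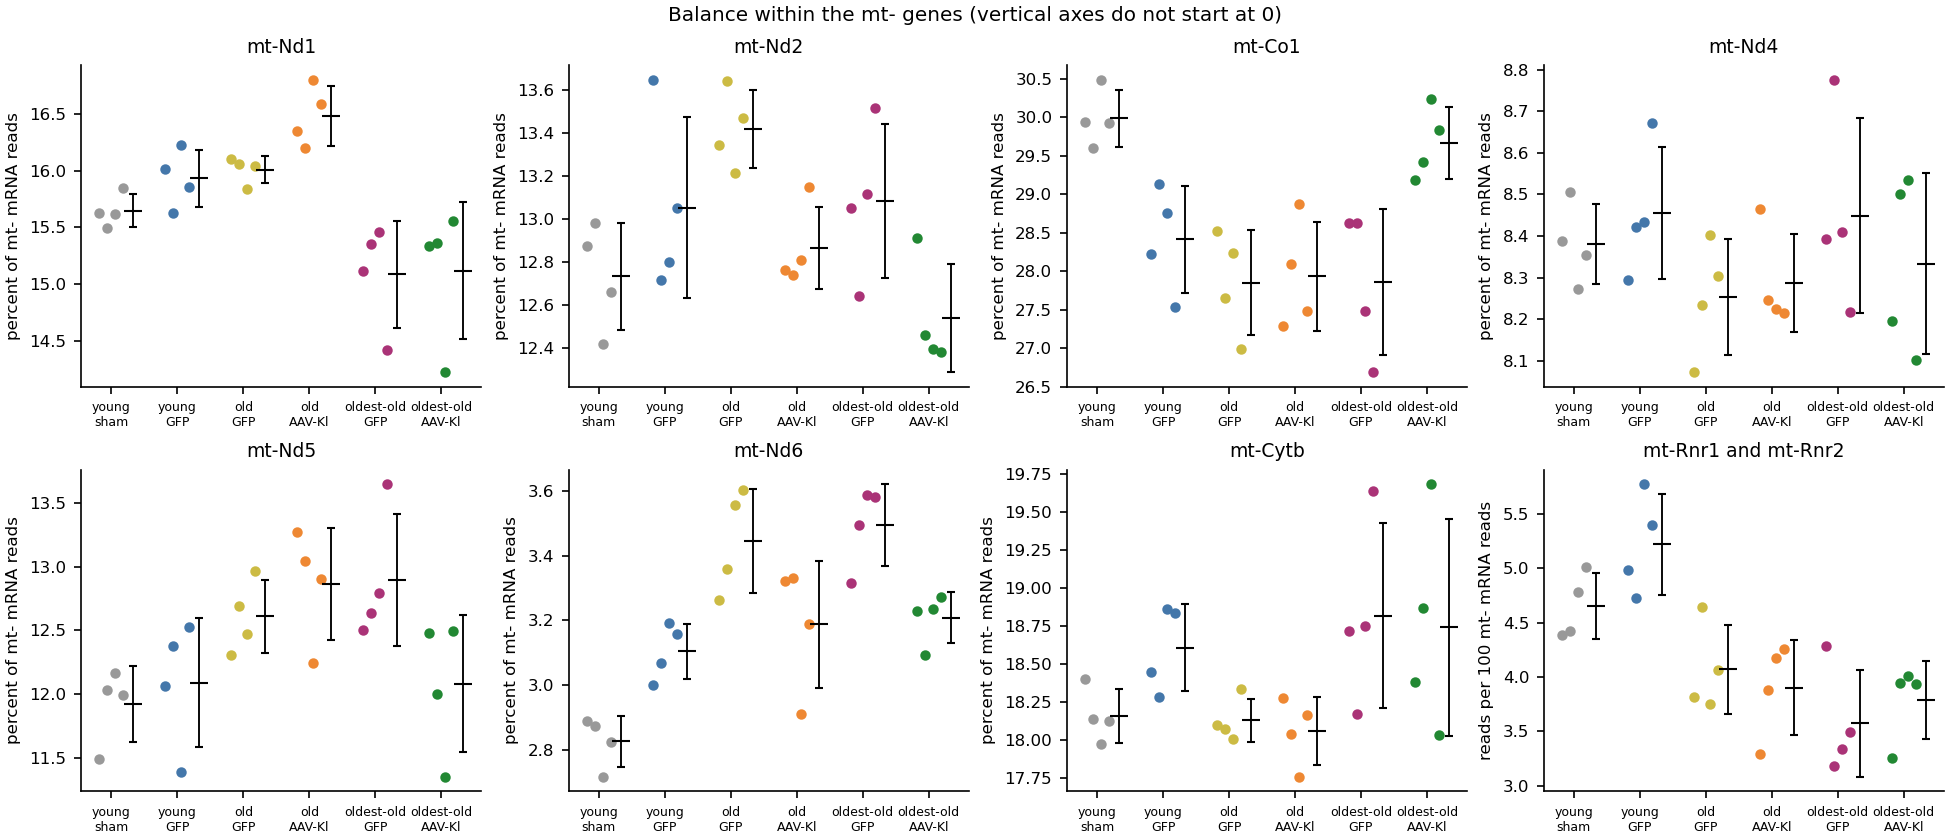
Balance within the set in each library (points) by group, with group mean and SD, as the percent of mt- mRNA reads on each of 7 mRNAs and as rRNA reads per 100 mRNA reads, on axes that do not start at 0. The rRNA ratio is highest in young GFP (4.72 to 5.77) and mt-Nd6 lowest in young sham (2.72% to 2.89%).

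The strand columns recover reads that touch genes on opposite strands. The library kit did not mark strand: in each library 50.4% to 51.1% of the reads counted by strand on other genes fell in the first strand column. On mt- mRNAs it was 45.1% to 47.7%, and 62.2% for mt-Nd6 over all libraries. Since strand is not marked, reads from a gene and from RNA of the other strand cannot be told apart, and a read over 2 facing genes can enter both. With the strand columns summed, mt-Nd6 gained most among mRNAs: 32.1% (29.1% to 34.2%) of the reads then counted on it had been left out before. For mt-Nd5 the part was 10.8%, for mt-Cytb 3.1%, for mt-Co1 0.37%, and close to 0 for the rRNAs, mt-Nd1 and mt-Nd2.

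For the tRNAs the strand columns made up nearly all reads. Without strand, 17 of 22 tRNA genes had no read in any library, and the 5 others were mt-Tp with 23755 reads in all libraries together, mt-Tc with 86, mt-Tn with 43, and mt-Te and mt-Ts1 with 1 each. In the strand columns 16 had reads and 6 had none. There were 9 with over 1000 reads, and 6 of these are among the 8 tRNA genes on the minus strand, the other 14 being on the plus strand. A read that touches more than 1 gene of the same strand stays uncounted in these columns. Which tRNA genes gain reads thus depends on the strand of their neighbours, and this split is no measure of tRNA levels. mt-Te, printed above, led with 237727 reads, followed by mt-Ty (tyrosine) with 71826, mt-Ts1 (serine) with 47757, mt-Tp with 33552, mt-Tq (glutamine) with 26350, mt-Tw (tryptophan) with 17347, mt-Ta (alanine) with 7098, mt-Tt (threonine) with 6801 and mt-Tm (methionine) with 1217. These reads touch the tRNA gene and may come from precursors of either strand or from mature tRNA, which the counts do not separate.

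In the fit of the summed strand columns, 27 members were tested and 6 were called between oldest-old GFP and young GFP, all lower, where 14.8% of the 19233 genes tested were called. Besides both rRNAs these were mt-Ta, mt-Tw, mt-Ty and mt-Tp. mt-Ta had 8.39 ± 1.79 strand-column CPM, reads per 1000000 reads of both columns (6.91 to 10.7), in young GFP and 3.64 ± 0.73 (3.03 to 4.65) in oldest-old GFP, without overlap (log2 fold change -1.33, SE 0.18, edgeR, adjusted p = 0.00014). mt-Tw had 17.9 ± 3.84 (14.3 to 22.9) and 9.69 ± 2.16 (7.70 to 12.2) strand-column CPM (-1.01, SE 0.20, adjusted p = 0.0029). mt-Tw (M, 4950 to 5016, plus strand) and mt-Ta (M, 5018 to 5086, minus strand) are neighbours, so that the same reads can enter both. mt-Ty (M, 5260 to 5326, minus strand) fell by 0.70 (SE 0.18, edgeR, adjusted p = 0.013) and mt-Tp by 0.57 (SE 0.13, adjusted p = 0.0077) on the log2 scale.

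mt-Tw and mt-Ta were low in young sham too. mt-Tw had 9.30 ± 1.62 strand-column CPM (7.94 to 11.6) and mt-Ta 3.85 ± 0.42 (3.56 to 4.45) there, both below young GFP without overlap. In that comparison these were the 2 members called, mt-Tw at 1.06 (SE 0.20, edgeR, adjusted p = 0.023) and mt-Ta at 1.24 (SE 0.18, adjusted p = 0.0094), where 0.536% of all genes were called. The sum of 8 endothelial markers also separated these groups, at 310 to 332 normalised CPM in young sham and 255 to 291 in young GFP, with 0 of 8 called, and its part in the tRNA counts was not tested. Old mice held 15.9 ± 3.35 (GFP) and 18.04 ± 4.03 (AAV-Kl) strand-column CPM of mt-Tw, near young GFP, and oldest-old AAV-Kl 8.70 ± 1.83, near oldest-old GFP. mt-Ta split the groups alike, with 6.41 ± 1.34 in old GFP, 6.94 ± 1.33 in old AAV-Kl and 3.41 ± 0.48 in oldest-old AAV-Kl. mt-Tp, not called between the young groups, had 23.1 ± 0.67 (22.3 to 23.9) in young sham and 28.8 ± 2.50 (25.1 to 30.6) in young GFP. In oldest-old GFP mt-Tp had 21.2 ± 1.43 (19.6 to 23.03), which overlapped with young sham. mt-Ty had 51.6 ± 7.83 (41.6 to 60.2) in young sham, which overlapped with both young GFP (55.3 to 83.4) and oldest-old GFP (41.4 to 52.9). mt-Tq, not called in either comparison, stood at 31.6 ± 8.78 strand-column CPM in young sham, 16.2 ± 2.06 in young GFP, 13.7 ± 2.73 in old GFP and 22.03 ± 4.85 in oldest-old GFP. mt-Te ran from 149 ± 13.3 in oldest-old AAV-Kl to 207 ± 37.8 in old AAV-Kl, with 194 ± 26.9 in young GFP and 180.0 ± 15.6 in oldest-old GFP. Against young GFP, mt-Te in oldest-old GFP overlapped and was not called (-0.23, SE 0.14, edgeR, adjusted p = 0.29).

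**Figure D5:**
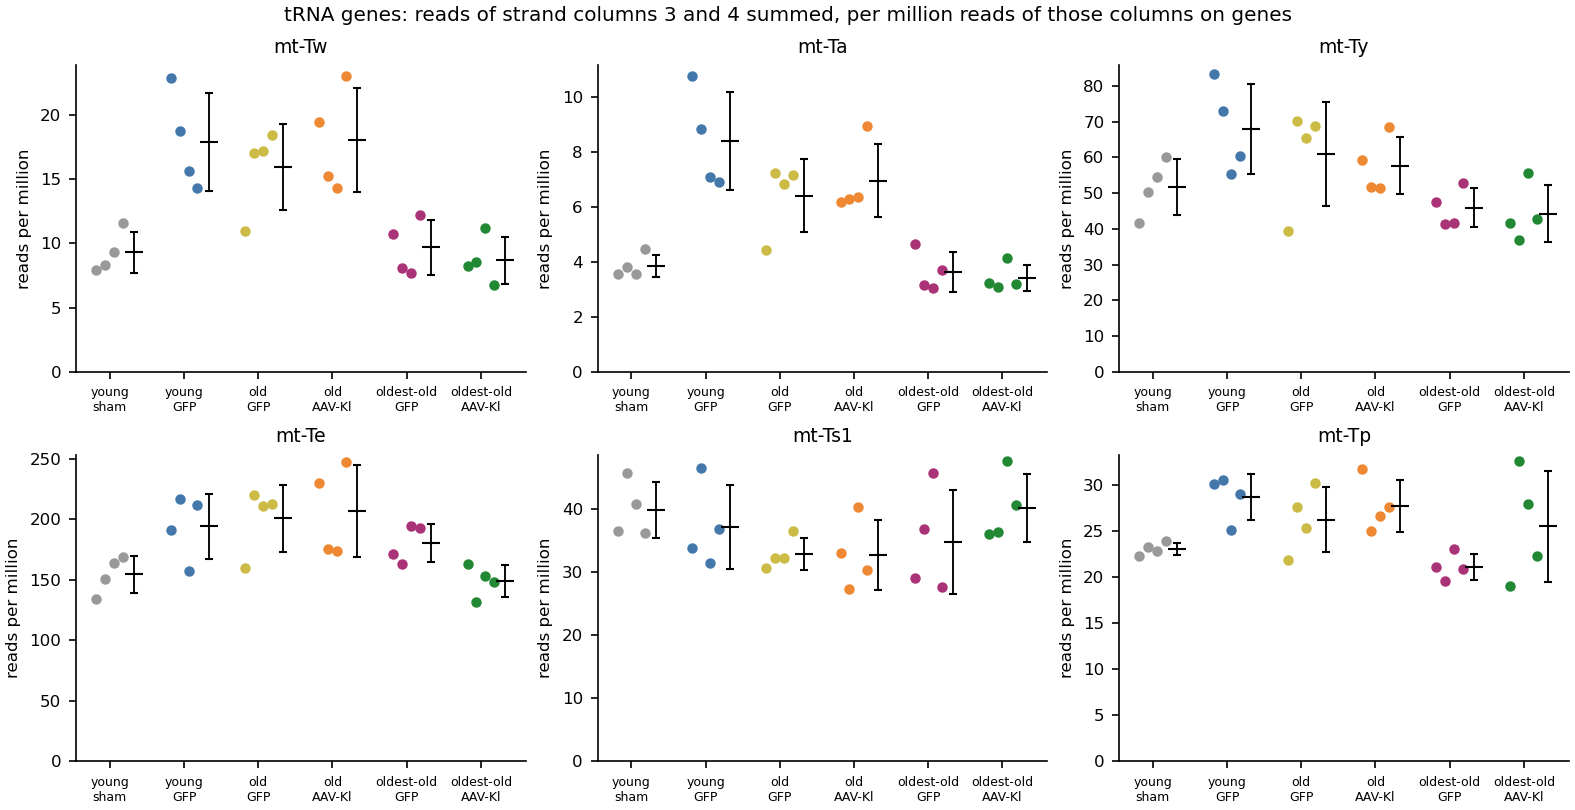
Reads of both strand columns on 6 tRNA genes, as CPM of all such reads on genes, for each library (points) by group, with the group mean and SD beside them. mt-Tw and mt-Ta lie lower in young sham and both oldest-old groups than in young GFP, where mt-Tw ranges from 14.3 to 22.9.

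Nuclear genes that serve this genome were taken as 7 lists of 143 genes, of which 141 passed the filter. Between oldest-old GFP and young GFP, 51 of them were called lower and 3 higher, and 117 of 141 log2 fold changes were negative. That is 36.2% lower, against 6.08% of all genes, and 38.3% in either direction, against 14.9%. In the lists of respiratory chain partners, 22 of 36 complex I genes were lower (median -0.24), 5 of 9 of complex III (-0.26), 6 of 14 of complex IV (-0.22) and 8 of 15 of the ATP synthase (-0.23), with none higher, beside a median of 0.03 over all genes. Examples were Ndufc1 of complex I at -0.40 (edgeR, adjusted p = 0.0080), Uqcrb of complex III at -0.35 (adjusted p = 0.0017), Cox7c of complex IV at -0.39 (adjusted p = 0.0072) and Atp5o of the ATP synthase at -0.42 (adjusted p = 0.0016). The number called lower fell to 26 without young GFP library 1, to 25 without young GFP library 4 and to 25 without oldest-old GFP library 4. It was 10, beside 3 higher, with young sham in place of young GFP, where 11.6% of all genes were called. With scaling by total reads it was 21, beside 3 higher, where 3101 of 17803 genes were called. In a fit of these groups alone it was 7, with 0 higher, where 1249 of 16067 genes were called. In these settings the share of list genes called in either direction was not above that of all genes.

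The other lists concern copying, transcription and RNA, and their regulators. Of 20 genes for transcription and replication of mitochondrial DNA, 5 were lower and 2 higher (median -0.15), and of 35 genes for RNA processing, modification and decay 3 were lower and 0 higher (median -0.15), beside the same 6.08% of all genes called lower. Twnk, the replicative helicase, had -0.58 (edgeR, adjusted p = 0.0034) and Polg, the catalytic subunit of the DNA polymerase, -0.23 (adjusted p = 0.0052), while Polg2, its accessory subunit, had 0.57 (adjusted p = 0.0023). In normalised CPM, Twnk stood at 37.7 ± 4.95 in young GFP, 25.3 ± 3.25 in oldest-old GFP and 26.7 ± 4.15 in young sham. Polg2 stood at 2.31 ± 0.36, 3.44 ± 0.53 and 2.87 ± 0.01 there, in that order. Fastk, which belongs to a family of mitochondrial RNA-binding proteins, had -0.27 (adjusted p = 0.0077). Among 12 regulators of mitochondrial biogenesis, 2 were lower and 1 higher (median 0.01). These were Ppargc1a, the coactivator PGC-1α, at -1.44 (adjusted p = 0.00023), Ppara, a nuclear receptor for fatty acids, at -1.23 (adjusted p = 0.00041), and the deacetylase Sirt1 at 0.31 (adjusted p = 0.048). With young sham in place of young GFP, 2 of the 20 were lower and 1 higher. Of the 35 there were 1 lower and 1 higher, and of the 12 also 1 and 1, where 11.6% of all genes were called.

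Against young GFP, old GFP had 7 list genes lower and 0 higher, which is 4.96% of those tested and near the 4.7% of all genes called. They included Ppargc1a at -1.30 (edgeR, adjusted p = 0.0015), Ppara at -0.91 (adjusted p = 0.0096), Twnk at -0.47 (adjusted p = 0.029), Polg at -0.21 (adjusted p = 0.022) and Atp5o at -0.28 (adjusted p = 0.042). With young sham in place of young GFP, edgeR called 0 of 141, with 9 at an unadjusted p under 0.05, and the median was -0.02. The number with any 1 library of these groups left out was 2 to 6.

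Between the young groups edgeR called 1 list gene of 141, Ppargc1a, and DESeq2 called 3, where edgeR called 0.472% of all genes, and the median of the 141 was 0.10. Ppargc1a had 38.0, 42.3, 54.1 and 59.0 normalised CPM in young sham and 57.8, 97.4, 146 and 145 in young GFP, and 45.3 ± 9.67 in old GFP, 41.5 ± 3.87 in old AAV-Kl, 41.0 ± 1.60 in oldest-old GFP and 41.4 ± 4.84 in oldest-old AAV-Kl. Young GFP against young sham gave 1.20 (SE 0.21, edgeR, adjusted p = 0.013), with ranges that overlapped. Against young sham, old GFP gave -0.10 (adjusted p = 0.84) and oldest-old GFP -0.24 (adjusted p = 0.48). AAV-Kl called 0 list genes at either age by edgeR, and DESeq2 called 0 in old and 1 in oldest-old mice. At an unadjusted p under 0.05 there were 2 list genes lower in old mice, 1.42% of those tested against 2.15% of all genes. In oldest-old mice there were 19 higher and 3 lower, 15.6% against 8.07%. That number, 22 in either direction, depended on the setting. It was 5 in a fit of these groups alone, where 616 of 16634 genes passed. With scaling by total reads it was 43, where 1382 of 17803 genes passed. It was 7 without the fourth oldest-old GFP library, 8 without the third oldest-old AAV-Kl library and 57 without the second oldest-old GFP library.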

How the data were processed

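RNA from the gastrocnemius was sequenced in 24 libraries, and per the labels the authors checked reads with FastQC and aligned them with STAR to mm10 (GRCm38). The deposited files hold counts of reads per gene, not normalized, from STAR's gene counting, which keeps reads that map once and overlap 1 gene. Each has a column without strand, used here, and a column for each strand, used for overlapping genes. Gene positions and sequences came from GENCODE M21. All members and gene lists were chosen with earlier results of these data known.

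Counts were fitted in edgeR 4.0.16 (R 4.3.3) with TMM scaling, edgeR's filter on low counts and the quasi-likelihood test, in 1 model of 6 groups. p-values were adjusted by Benjamini-Hochberg over all 17803 genes tested, and an adjusted p under 0.05 is a call. The fit was tested on simulated data with 200 changed genes. DESeq2 1.42.0, other scalings, no filter, each strand column, fewer groups, a replicate block, young sham in place of young GFP and leaving out each library were alternatives. Named were all mRNAs and rRNAs, with full statistics for called members or else the 3 with the lowest p, the 5 highest tRNAs with any called, and list genes that were called, at most 6 per list. Other tRNAs, and Ppargc1a's values in each library, were added after values were seen.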

Additional observations from a re-analysis of the deposited data

Results flagged for a closer look

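In 7 of 150 combinations of group and measure (25 measures in 6 groups), 1 library stood apart from the other 3 by Dixon's criterion, which chance meets in about 1 in 20. The first oldest-old AAV-Kl library had 3.26 rRNA reads per 100 mRNA reads, against 3.93 to 4.01 in the others, and 12.9% of mRNA reads on mt-Nd2, against 12.4% to 12.5%. The third oldest-old AAV-Kl library had 14.2% on mt-Nd1, against 15.3% to 15.6%, and 21.7 normalised CPM of mt-Nd3, against 16.5 to 17.1. The first old AAV-Kl library had 8.46% on mt-Nd4, against 8.22% to 8.25%, and the second 110 normalised CPM of mt-Atp6, against 139 to 140. The third young GFP library had 29.6 normalised CPM of mt-Atp8, against 32.9 to 33.2.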

How the results depend on the processing

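The number of mt- genes called between oldest-old GFP and young GFP, 2 in the report, was 6 with the strand columns summed, 6 with the first strand column, 6 with the second and 5 at an unadjusted p, and 1 with young sham in place of young GFP. It was 3 with DESeq2, with its size factors in edgeR and with scaling by genes outside the set. It ran from 2 to 6 with 1 library left out. Between old GFP and young GFP (0) it was 1 with DESeq2, 2 at an unadjusted p, 1 with young sham, and 0 to 1 with 1 library left out. Young GFP against young sham (0) gave 2 with the strand columns summed, 2 with each strand column alone and 2 at an unadjusted p. At an unadjusted p there were 3 between oldest-old GFP and old GFP, 1 for AAV-Kl in oldest-old mice and 1 for the interaction. With the strand columns summed, the difference in the percent of mRNA reads on mt-Nd6 was 0.51 between oldest-old and young GFP and -0.40 for AAV-Kl in oldest-old mice.

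Against young sham, rRNA reads per 100 mRNA reads differed by -0.58 in old and -1.07 in oldest-old GFP. In percentage points of mRNA reads, mt-Co1 differed by -2.14 and -2.13, mt-Nd6 by 0.62 and 0.67, and in old GFP mt-Nd1 by 0.36 and mt-Cytb by -0.031. The log2 fold changes of mt-Rnr2 (0.076) and Twnk (0.032) in old GFP turned positive there. The cause was not tested. The share of gene reads moved by less than 1 SD under every alternative run.

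List genes called lower between oldest-old and young GFP (51) were 21 with total reads as scaling, 31 without the filter, 66 with DESeq2 and 7 in a fit of these groups alone. Of all genes, 3101 of 17803, 1755 of 37001, 3077 of 19021 and 1249 of 16067 were called in either direction there, in that order. For old GFP (7), list genes called lower were 11 with DESeq2, 3 without the filter and 24 in a fit of the groups alone. Of all genes, 1253 of 19734, 553 of 37001 and 1275 of 15960 were called there, in that order.

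Replicate numbers did not pair the libraries: libraries with the same number correlated from -0.53 to 0.20 in their deviations from group means, over 0.1 in 4 of 24 pairs, and 4 libraries correlated best with their own number. With the replicate block the call counts were 2 for oldest-old against young GFP and 0 in the other comparisons.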
